A study of Mus musculus with 14 samples.

Results

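The joining (J) segments of the T cell receptor alpha and beta loci were described in RNA libraries of regulatory T cells (Tregs), which hold immune responses in check and are defined by the transcription factor Foxp3. They were taken as every gene whose symbol starts with Traj or Trbj followed by a digit, 67 of the 22255 genes in the table. Of these, 54 were Traj segments and 13 were Trbj segments. The libraries came from Foxp3-YFP-positive cells of 8-week-old mice in 4 groups. KO tumor Tregs (3 libraries, replicates 1 to 3) came from Yumm1.7 melanomas of mice labelled CD36floxed FoxP3-YFPCre+/-. WT tumor Tregs (3 libraries, replicates 2 to 4) came from Yumm1.7 melanomas of FoxP3-YFPCre+/+ mice. Lymph node (LN) Tregs and spleen Tregs (4 libraries each) came from FoxP3-YFPCre+/+ mice as well. All groups therefore carried the Foxp3-driven YFP-Cre allele, and the KO mice differed from the others in the number of its copies (+/- against +/+) as well as in floxed Cd36. The design text sets Tregs of different tissues against each other, and KO against WT tumor Tregs. No label says that the replicates are different animals. The p-values therefore reflect the scatter of these libraries alone, and that scatter may be technical.

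A T cell builds its receptor genes by V(D)J recombination, in which the Rag1 and Rag2 recombinase joins a variable segment to a joining segment, with a diversity segment between them at the beta locus. The J segment encodes the end of the third complementarity-determining loop, which contacts the peptide, and is spliced to the constant exons. Each T cell clone carries its own joins, so the spread of J segments over a population reflects its clones. Unrearranged J segments can also be transcribed as part of germline or unspliced RNA of the locus, and a count per segment does not tell these forms apart.

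In GENCODE M21 on GRCm38 the listed Traj segments spanned chr14:54156133-54218842 and the Trbj segments chr6:41533864-41543856, all on the plus strand. Each is a short segment, 29 to 66 bases long at Traj (median 61) and 46 to 54 bases at Trbj (median 49). No other M21 gene overlapped any of the 67. Of the 60 Traj segments in M21, 6 were not analysed here (Traj36, Traj47, Traj54, Traj55, Traj60 and Traj61), and of 14 Trbj segments 1 was not (Trbj2-6). The listed Traj segments include 4 annotated pseudogenes, Traj51, Traj14, Traj8 and Traj1.

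The sequences of the leading Traj segments and of some other segments named below are shown. Of the segments that passed a test, Traj56 is not shown. Differences between segments can help to assign short reads to one of them, and how the reads were assigned was not tested. Capitals mark letters that match the phenylalanine-glycine-any-glycine motif, which is common among functional J segments but not held by all. It was searched on the coding strand as TTT or TTC followed by GGN, NNN and GGN (N, any base), without regard to reading frame. The positions are chr14:54200777-54200842 for Traj18, chr14:54192303-54192361 for Traj27, chr14:54206553-54206610 for Traj12, chr14:54200386-54200446 for Traj19 and chr14:54168686-54168747 for Traj49. Traj31 lies at chr14:54187895-54187951, Traj6 at chr14:54212688-54212749, Trbj2-1 at chr6:41542754-41542803, Trbj2-5 at chr6:41543453-41543501 and Trbj2-7 at chr6:41543810-41543856.
Traj18: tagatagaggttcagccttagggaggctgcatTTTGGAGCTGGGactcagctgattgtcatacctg
Traj27: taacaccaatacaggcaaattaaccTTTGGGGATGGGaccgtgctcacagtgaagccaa
Traj12: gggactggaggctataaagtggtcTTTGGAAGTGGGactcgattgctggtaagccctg
Traj19: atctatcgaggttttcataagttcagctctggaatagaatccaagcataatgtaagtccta
Traj49: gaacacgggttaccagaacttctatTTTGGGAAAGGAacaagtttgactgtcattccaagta
Traj31: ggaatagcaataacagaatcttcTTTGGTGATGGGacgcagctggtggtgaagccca
Traj6: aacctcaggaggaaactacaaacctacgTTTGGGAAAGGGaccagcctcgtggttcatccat
Trbj2-1: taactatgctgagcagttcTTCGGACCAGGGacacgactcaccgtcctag
Trbj2-5: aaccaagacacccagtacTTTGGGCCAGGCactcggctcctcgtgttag
Trbj2-7: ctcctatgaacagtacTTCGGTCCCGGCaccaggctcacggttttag

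These letters were found in 41 of 54 Traj segments (75.9%) and in 11 of 13 Trbj segments (84.6%), with no overlapping matches. Whether each match lies in the reading frame was not checked. Traj19 does not hold these letters. The 5 leading Traj segments (Traj18, Traj27, Traj12, Traj19 and Traj49) were 49.2 to 60.6% identical to each other. They were 58 to 66 bases long with 36.1 to 53.4% GC, inside the range of the other 49 Traj segments (29 to 66 bases, 35.3 to 59.5% GC). The closest neighbour within a locus was 65.2% identical at the median for Traj and 66.0% for Trbj. Of the 67, only Traj41 shared a run of 20 bases with another M21 transcript.

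Estimated depth ran from 10.7 to 21.5 M reads (M, mega), with 13.6 to 17.2 in KO tumor, 10.7 to 14.4 in WT tumor, 18.3 to 21.5 in LN and 11.5 to 13.8 in spleen libraries. One read on a segment of 60 bases was then worth 0.775 to 1.55 FPKM. T cell markers (6 of 6 listed) summed to 2893 to 4482 FPKM over all libraries. Foxp3 was above 0 in all 14 libraries, at 42.4, 41.7 and 25.7 FPKM in KO tumor, 11.959, 3.54 and 11.965 FPKM in WT tumor, 32.3, 23.6, 15.4 and 25.4 FPKM in LN and 21.1, 16.9, 27.8 and 8.67 FPKM in spleen. The WT tumor libraries lay below all KO tumor and all LN libraries in this defining marker and overlapped spleen. Treg markers (5 of 5 listed, Foxp3 among them) summed to 400 to 455 FPKM in KO tumor and 332 to 389 FPKM in WT tumor. They summed to 235 to 273 FPKM in LN and 198 to 333 FPKM in spleen. In this sum the WT tumor libraries lay below all KO tumor libraries but above all LN libraries, the reverse of Foxp3 for LN. The part of these differences in J segment usage was not tested. Cd36 was listed at 0 in KO tumor replicates 1 and 3 and at 1.06 FPKM in KO tumor replicate 2, against 0 in all 3 WT tumor libraries, so its level gave no check of the KO label. Rag1 and Rag2 were at 0 in every library.

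By mean share, the alpha locus was led by the same 3 segments in every group, Traj18, Traj27 and Traj12. Traj18, the segment used by the invariant receptor of natural killer T (NKT) cells, held 39.6% ± 8.66 of summed Traj FPKM (SD over 14 libraries) and was the leading segment in 11 libraries. Traj27 held 26.9% ± 8.89 and led in the other 3, which were KO tumor replicate 3, LN replicate 3 and spleen replicate 1. Traj12 held 11.8% ± 3.90, Traj19 4.56% ± 3.20 and Traj49 2.50% ± 1.13. Traj19 and Traj49 did not rank next in every group. Traj19 was at 0 in WT tumor replicate 2 and spleen replicate 1, and averaged 1.95% in WT tumor, below Traj33 (2.73%). Traj8 averaged more than Traj49 in KO tumor (2.47 against 1.89%) and in LN (3.51 against 2.79%). The 5 segments of highest mean share over all libraries (Traj18, Traj27, Traj12, Traj19 and Traj49) together took 75.0 to 96.0% of the locus in every library, and the other 49 shared the rest.

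**Figure D1:**
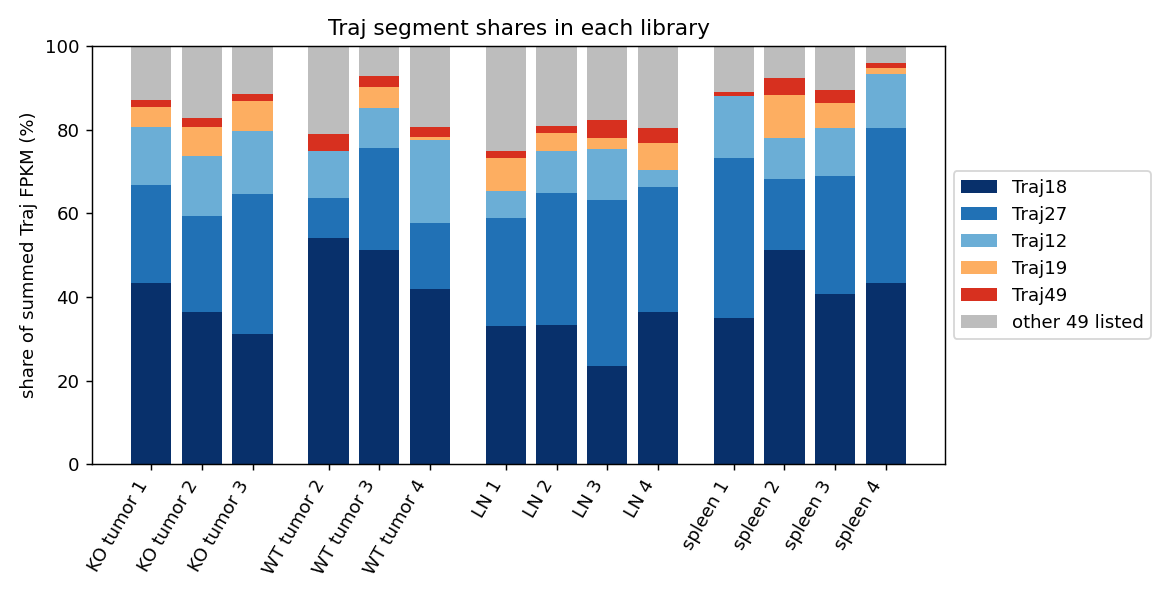
Share of summed Traj FPKM (%, vertical axis) held by the 5 leading segments and by the other 49 listed segments together, stacked for each of the 14 libraries, grouped as KO tumor, WT tumor, LN and spleen. The Traj18 band ranges from 23.5% in LN replicate 3 to 54.2% in WT tumor replicate 2, and the 5 leading segments fill at least 75.0% of each bar.

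Traj18 took 43.4, 36.5 and 31.2% of Traj FPKM in the KO tumor libraries and 54.2, 51.2 and 41.9% in the WT tumor libraries. In LN it took 33.0, 33.2, 23.5 and 36.4%, and in spleen 35.0, 51.3, 40.8 and 43.4%. The WT tumor shares all lay above the LN shares, while KO and WT tumor shares overlapped. Traj27 took 23.3, 22.9 and 33.5% in KO tumor, 9.59, 24.4 and 15.9% in WT tumor, 25.8, 31.6, 39.7 and 29.8% in LN, and 38.2, 16.8, 28.2 and 36.9% in spleen. The ratio of Traj18 to Traj27 averaged 1.46 in KO tumor libraries and 3.46 in WT tumor libraries, which did not overlap. It averaged 1.04 in LN and 1.65 in spleen libraries.

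Zbtb16, a transcription factor of NKT cells, was at 0 in 13 of 14 libraries and at 0.0529 FPKM in the remaining one, WT tumor replicate 2. Traj33, the segment of the invariant receptor of mucosal-associated invariant T cells, had its highest level in WT tumor replicate 2 (428 FPKM), where it held 36.3% of Traj FPKM outside the 5 leading segments. Trav1, the variable segment of that receptor, was above 0 in 4 libraries and at 0 in that one. The part of NKT or mucosal-associated invariant T cells in the Traj18 and Traj33 levels was not tested.

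Of the Traj segments, 4 were above 0 in all 14 libraries, and their relative spread (SD over mean of the share) was 0.218 for Traj18, 0.330 for Traj12, 0.331 for Traj27 and 0.450 for Traj49. At the other end, Traj59 and Traj29 were at 0 everywhere. Traj3, Traj1 and Traj46 had the lowest mean shares above 0, with 1.05 FPKM in WT tumor replicate 4, 2.05 FPKM in KO tumor replicate 1 and 3.45 FPKM in spleen replicate 3, each in a single library. Traj51, the pseudogene, was also above 0 in a single library, LN replicate 1, at 76.4 FPKM. Pseudogenes together held at most 7.83% of Traj FPKM, in LN replicate 1, through Traj8 (143 FPKM) and Traj51.

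By position, the first 18 listed Traj segments (Traj59 to Traj39, the side nearer the variable segments) held 4.35% ± 0.348 of Traj FPKM in KO tumor, 5.21% ± 0.594 in WT tumor, 7.58% ± 2.33 in LN and 4.81% ± 0.815 in spleen. The last 18 (Traj19 to Traj1, next to Trac) held 65.2% ± 5.62 in KO tumor and 67.8% ± 1.61 in WT tumor, and 54.2% ± 4.96 in LN and 62.4% ± 9.36 in spleen (SD, n = 3, 3, 4 and 4). Outside the 5 leading segments, the last 18 positions held 53.9% ± 5.81 in KO tumor, 21.8% ± 3.72 in WT tumor, 45.1% ± 6.91 in LN and 33.3% ± 15.9 in spleen. In that remainder the middle 18 positions (Traj38 to Traj20) held 27.6% ± 9.88 in KO tumor and 57.1% ± 26.0 in WT tumor, against 31.8% ± 10.2 in LN and 30.03% ± 13.3 in spleen.

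The level of Traj segments per length exceeded that of Trac, the alpha constant gene to which every productive join is spliced. Summed Traj FPKM over Trac FPKM was 4.02, 5.33 and 4.17 in KO tumor, 9.32, 11.9 and 5.51 in WT tumor, 2.92, 3.73, 3.21 and 4.28 in LN, and 7.70, 20.9, 9.19 and 34.0 in spleen libraries. The ratio was above 1 in all 14 libraries. KO and WT tumor ratios did not overlap, nor did those of WT tumor and LN or of LN and spleen. Without the 5 leading segments the other 49 summed to 0.477 to 1.97 times Trac. At the beta locus the picture was the reverse: summed Trbj FPKM was 0.108, 0.195 and 0.141 times Trbc1 plus Trbc2 in KO tumor and 0.106, 0.0553 and 0.323 times in WT tumor. It was 0.208 to 0.241 times in LN and 0.133 to 0.229 times in spleen. Both ratios set features of 29 to 66 bases against constant genes that are longer, and how FPKM treats such short features was not tested.

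**Figure D2:**
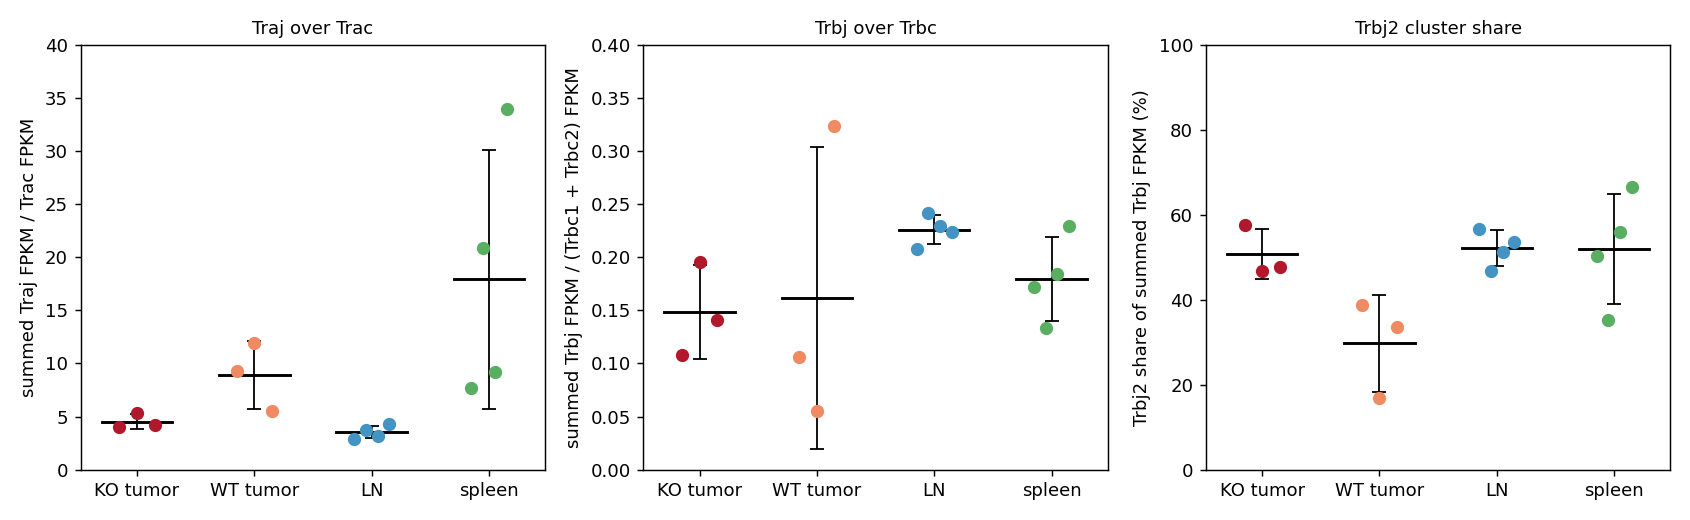
Left, summed Traj FPKM over Trac FPKM. Middle, summed Trbj FPKM over Trbc1 plus Trbc2 FPKM. Right, share of summed Trbj FPKM held by the Trbj2 cluster (%). Each point is 1 library in the KO tumor, WT tumor, LN or spleen group, the horizontal line is the mean and the bar the SD. All Traj ratios lie above 1 and all Trbj ratios below 1, and the WT tumor libraries have Trbj2 shares of 16.9 to 38.6%.

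Evenness, which is 1 when all listed segments have equal shares and 0 when a single one holds the locus, was lower at Traj than at Trbj in every library. Traj evenness was 0.452, 0.506 and 0.454 in KO tumor and 0.418, 0.381 and 0.464 in WT tumor libraries. It was 0.566, 0.497, 0.496 and 0.493 in LN and 0.394, 0.399, 0.440 and 0.318 in spleen libraries. All LN values lay above all WT tumor and all spleen values, and KO and WT tumor overlapped. The means were 0.471 ± 0.0307 in KO tumor, 0.421 ± 0.0419 in WT tumor, 0.513 ± 0.0353 in LN and 0.388 ± 0.0505 in spleen. As an effective number of equally used segments this is 6.57, 5.41, 7.80 and 4.77 in that order. The KO minus WT tumor difference in Traj evenness was 0.0496 with Traj18 and 0.000605 without it. Among the 49 segments outside the leading 5, evenness was 0.676 in KO tumor and 0.561 in WT tumor, where the libraries did not overlap, a measure added after the data were seen.

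Trbj evenness was 0.877, 0.870 and 0.807 in KO tumor and 0.700, 0.452 and 0.772 in WT tumor libraries. In LN it was 0.893, 0.965, 0.876 and 0.874, and in spleen 0.724, 0.676, 0.816 and 0.557. The KO tumor values all lay above the WT tumor values, and the LN values all lay above those of WT tumor and of spleen. The KO minus WT tumor difference was 0.210, against a spread of 0.122 (root mean of the group variances), and fell to 0.115 without WT tumor replicate 3. The WT tumor minus LN difference was -0.260 and the LN minus spleen difference 0.208, also beyond their spreads of 0.122 and 0.0820. The WT tumor minus spleen difference of -0.0519 was inside its spread of 0.141 and was 0.0428 without WT tumor replicate 3. These values rest on an estimated 224 to 378 Trbj reads per library in KO tumor and 133 to 726.5 in WT tumor. LN libraries had 1001 to 1327 and spleen libraries 258 to 502. The part of read number in evenness was not tested.

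**Figure D3:**
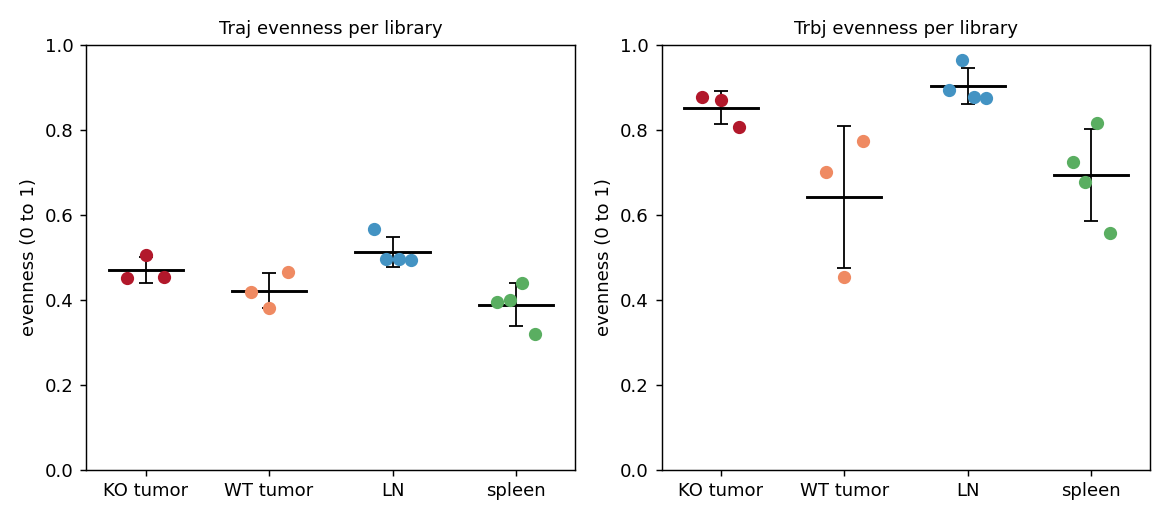
Evenness (0 to 1, vertical axis) of segment shares at Traj (left) and Trbj (right) in each library of the KO tumor, WT tumor, LN and spleen groups. Points are libraries, lines are means and bars are SDs. LN has the highest mean at both loci (0.513 and 0.902), and WT tumor replicate 3 has the lowest Trbj value, 0.452.

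The number of Traj segments above 0 was 31, 30 and 25 in KO tumor, 17, 23 and 20 in WT tumor, 35, 32, 29 and 20 in LN and 19, 20, 26 and 10 in spleen libraries. LN libraries were also the deepest. With every library thinned to the depth of the shallowest, by expectation, the means were 27.6 in KO tumor, 19.5 in WT tumor, 28.0 in LN and 18.5 in spleen, against 28.7, 20, 29 and 18.8 as listed. Many Traj segments were above 0 in some replicates of a group only. Of the 54, 17 were above 0 in all 3 KO tumor libraries and 24 in some of them only. In WT tumor 9 were above 0 in all 3 and 25 in some, in LN 12 in all 4 and 34 in some, and in spleen 7 in all 4 and 30 in some.

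At Trbj no segment led throughout. Trbj2-7 (15.5% of summed Trbj FPKM on average), Trbj1-1 (14.2%), Trbj2-1 (10.2%), Trbj1-2 (10.1%) and Trbj1-4 (9.74%) had the highest mean shares. Trbj2-7, Trbj1-1 and Trbj2-1 each led 3 libraries, and Trbj1-2, Trbj1-3, Trbj1-4, Trbj1-6 and Trbj2-5 led 1 each. The lowest mean shares were those of Trbj2-2 (3.64%), Trbj1-5 (2.16%) and Trbj1-7 (1.26%). Only Trbj2-3, Trbj2-5 and Trbj1-3 were above 0 in all 14 libraries, with relative spreads of 0.588, 0.646 and 0.697, larger than those of the Traj segments above.

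**Figure D4:**
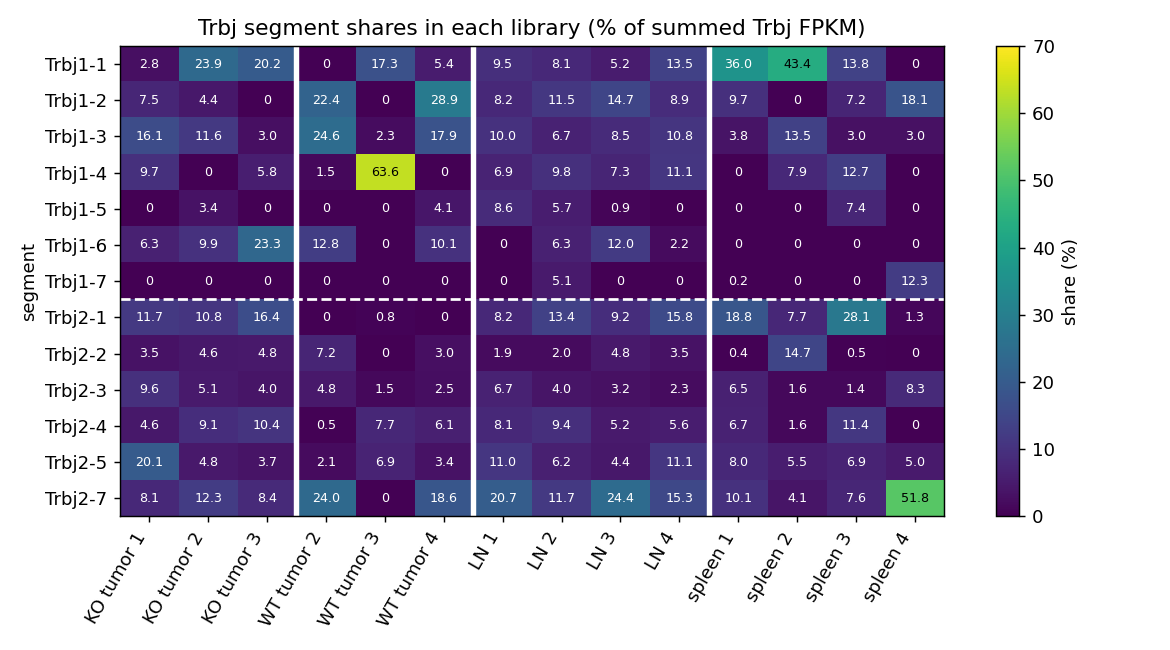
Heat map of the share of summed Trbj FPKM (%, printed in each cell and given by the colour bar) for the 13 listed Trbj segments (rows, the dashed line separates the clusters) in the 14 libraries (columns, grouped as KO tumor, WT tumor, LN and spleen). The highest share in an LN column is 24.4%, whereas Trbj1-4 reaches 63.6% in WT tumor replicate 3 and Trbj2-7 reaches 51.8% in spleen replicate 4.

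A single segment took far more of the locus in some libraries than in the others of its group. Trbj1-4 held 63.6% in WT tumor replicate 3 (125 FPKM), against 5.48 FPKM and 0 in the other WT tumor libraries. Trbj2-7 held 51.8% in spleen replicate 4 (476 FPKM), where the other spleen libraries had 17.3 to 72.6 FPKM. Trbj1-1 held 36.0 and 43.4% in spleen replicates 1 and 2 (259 and 183 FPKM) and was at 0 in spleen replicate 4. The leading Trbj share was 20.1 to 23.9% in KO tumor, 24.6 to 63.6% in WT tumor, 13.4 to 24.4% in LN and 28.1 to 51.8% in spleen libraries.

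Replicates of LN had the highest average similarity of Trbj usage. The overlap of 2 libraries, the sum over segments of the smaller of both shares, averaged 63.1% within KO tumor (3 pairs), 34.6% within WT tumor (3 pairs), 75.2% within LN (6 pairs) and 41.4% within spleen (6 pairs). LN pairs spanned 72.1 to 79.1%, and KO tumor pairs 53.5 to 73.8%, so the highest KO tumor pair lay inside the LN range. The LN pairs lay above every spleen pair (at most 65.8%) and above every WT tumor pair but 1 (77.1%). Estimated Trbj reads per library were 224 to 378 in KO tumor, 133 to 726.5 in WT tumor, 1001 to 1327 in LN and 258 to 502 in spleen, and the part of read number in this similarity was not tested. KO and WT tumor libraries overlapped by 44.2% on average (9 pairs). At Traj, where the same segments lead, pairs within a group averaged 83.4% in KO tumor, 73.6% in WT tumor, 76.0% in LN and 78.5% in spleen. Outside the 5 leading Traj segments these averages were 43.2, 32.4, 38.5 and 25.8%.

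The beta locus has a cluster of J segments before each constant gene, Trbj1 before Trbc1 and Trbj2 before Trbc2. The Trbj2 cluster held 57.6, 46.8 and 47.8% of Trbj FPKM in KO tumor and 38.6, 16.9 and 33.6% in WT tumor libraries. In LN it held 56.7, 46.7, 51.3 and 53.6%, and in spleen 50.3, 35.2, 55.8 and 66.5%. WT tumor shares lay below all KO tumor and all LN shares and overlapped those of spleen at 1 library. The difference was 21.0 percentage points for KO minus WT tumor, -22.4 for WT tumor minus LN, -22.2 for WT tumor minus spleen and 0.132 for LN minus spleen. Trbc2 as a share of Trbc1 plus Trbc2 was 60.6, 63.7, 64.4 and 62.1% on average in KO tumor, WT tumor, LN and spleen, and overlapped in every comparison. WT tumor libraries are shared by 3 of these 4 comparisons, in the tests of single segments too.

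Set against each other across all genes, KO and WT tumor libraries differed in 1 of the 36 segments tested. These were the segments, of 67, that reached 1 FPKM in at least 3 of the 6 libraries, so a segment present in 1 group alone could enter. In that comparison 0.28% of the 8210 genes tested were called by limma with Benjamini-Hochberg adjustment. At an unadjusted p under 0.05 there were 11 segments, beside 8.64% of the genes tested. The called segment was Trbj2-1, with 31.0, 60.5 and 58.2 FPKM in KO tumor and 0, 1.49 and 0 FPKM in WT tumor libraries. KO tumor libraries were all high, and a single WT tumor library was above 0, so the segment entered the fit through KO tumor. Trbj2-1 rose by 5.17 ± 0.694 (SE) on the log2(FPKM + 1) scale (adjusted p = 0.0169), a size that depends on the pseudocount where libraries are at 0. The call rests on few libraries. It ended without KO tumor replicate 1, 2 or 3 (limma adjusted p = 0.0649, 0.172 and 0.191) and without WT tumor replicate 2 or 4 (0.0522 and 0.0536). It also ended without the filter on low values (0.149), with a pseudocount of 0.1 (0.0742) and with the replicate block (0.183). Alternatives spanned 0.00502 to 0.191.

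The other segments named for KO against WT tumor did not pass. Traj57 was at 15.1, 14.04 and 8.32 FPKM in KO tumor and at 0 in all WT tumor libraries (limma adjusted p = 0.0880). Traj16 was at 21.5, 85.8 and 7.64 FPKM in KO tumor and at 0 in all WT tumor libraries (limma adjusted p = 0.115). Traj4, added after its values were seen, was at 14.2, 41.0 and 28.7 FPKM in KO tumor and at 0, 0 and 3.30 FPKM in WT tumor libraries (limma adjusted p = 0.126). Trbj1-1 was at 7.45, 134 and 71.6 FPKM in KO tumor and at 0, 34.1 and 54.9 FPKM in WT tumor libraries (limma adjusted p = 0.820), and its difference of 1.80 became -0.0251 without WT tumor replicate 2. Traj18 averaged 1436 FPKM in KO tumor and 2674 FPKM in WT tumor, without overlap and without passing the test (limma adjusted p = 0.297). Of the 36 segments 8 had groups that did not overlap, beside 14.5% of all genes tested.

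Markers of other cell types were summed beside these tumor values. CD8 T or NK cell markers (6 of 6 listed, Ncr1 at 0 in both groups) summed to 944 to 1930 FPKM in KO tumor and 616 to 1038 FPKM in WT tumor, and CD8 T cells rearrange the same loci. Macrophage or monocyte markers (7 of 7 listed, Adgre1 at 0 in WT tumor) summed to 185 to 245 FPKM in KO tumor and 0.842 to 26.8 FPKM in WT tumor. The 9 listed immunoglobulin J segments summed to 1038, 1005 and 747 FPKM in KO tumor and 2.39, 1.91 and 65.7 FPKM in WT tumor. B cell markers (6 of 6) summed to 18.3 to 49.4 FPKM in KO tumor and 6.05 to 96.3 FPKM in WT tumor. The macrophage or monocyte sums and the immunoglobulin J sums did not overlap between KO and WT tumor, while the CD8 T or NK and the B cell sums did. The part of these cells in J segment usage was not tested, and in bulk RNA fewer cells of a type and less RNA per cell cannot be told apart.

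WT tumor and LN libraries differed in more segments. Of the 51 that reached 1 FPKM in at least 3 libraries of the tissue fit (WT tumor, LN and spleen), 7 were called, beside 3.04% of the 9616 genes tested. In WT tumor 3 were higher, beside 1.89% of genes, and 4 were lower, beside 1.14%. The median log2 difference was -1.17 over the segments tested and -0.12 over all genes. These medians were 1.13 and 0.02 for LN minus spleen, 0.00240 and -0.07 for WT tumor minus spleen, and 0.45 and 0.07 for KO minus WT tumor. All LN libraries were deeper than all WT tumor libraries, and the part of depth was not tested. Trbj2-1 was at 0, 1.49 and 0 FPKM in WT tumor and at 77.9, 178, 93.0 and 181 FPKM in LN. It fell by 6.52 ± 0.784 on the log2 scale (limma adjusted p = 0.000391, and at most 0.00563 under every alternative). Trbj2-5 was at 7.61, 13.7 and 34.0 FPKM in WT tumor and at 105, 82.6, 44.6 and 127 FPKM in LN. It fell by 2.37 ± 0.523 (limma adjusted p = 0.0238).

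Traj6 was at 0 in all WT tumor libraries and at 15.9, 19.9, 30.0 and 74.7 FPKM in LN (limma log2 difference -4.92, adjusted p = 0.00361). Traj56 was likewise at 0 in WT tumor and at 25.3, 21.2, 0.738 and 15.6 FPKM in LN (limma log2 difference -3.51, adjusted p = 0.0309). Both were thus above 0 in every LN library and in no WT tumor library, although Traj56 in LN replicate 3 rests on an estimated 1 read. Traj56 was also at 0 in all spleen libraries, so it entered the fit through LN alone. Without the filter on low values it missed the threshold (limma adjusted p = 0.0807). Traj6 was above 0 in 1 spleen library only, so it too entered through LN, but in this comparison it passed under every alternative.

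The 3 segments higher in WT tumor than in LN included Traj18 and Traj12. Traj27, whose mean share lies between theirs, was at 537, 1464 and 725 FPKM in WT tumor and at 723, 1014, 833 and 884 FPKM in LN, which overlapped (limma log2 difference -0.05, adjusted p = 0.973). Traj18 was at 3035, 3073 and 1913 FPKM in WT tumor and at 926, 1065, 493 and 1080 FPKM in LN, a rise of 1.62 ± 0.322 on the log2 scale (limma adjusted p = 0.0130). Traj12 was at 618, 573 and 904 FPKM in WT tumor and at 183, 320, 252 and 119 FPKM in LN, a rise of 1.73 ± 0.327 (limma adjusted p = 0.00956). Traj31 was at 86.6, 23.5 and 48.7 FPKM in WT tumor and at 4.94, 3.47, 6.52 and 0 FPKM in LN, a rise of 3.66 ± 0.743 (limma adjusted p = 0.0144). For Traj18, Traj12 and Traj31 the groups did not overlap.

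The number of calls between WT tumor and LN dropped to 3 without WT tumor replicate 2. Traj18 then missed the threshold (limma adjusted p = 0.0604), as it did without WT tumor replicate 3 (0.0691). Traj31 missed it without WT tumor replicate 2 (0.0734), Traj56 without any WT tumor library in turn (0.0794 to 0.0959), and Trbj2-5 without WT tumor replicate 2 or 3 or LN replicate 1, 2 or 4 (0.0663 to 0.106). Without the filter on low values, Traj12, Traj18 and Trbj2-5 missed the threshold as Traj56 did (limma adjusted p = 0.0509, 0.0761 and 0.0721). With a pseudocount of 0.1, Traj31 missed it (limma adjusted p = 0.0918). Of the 51 segments 10 had groups that did not overlap, beside 17% of all genes tested. CD8 T or NK cell markers summed to 616 to 1038 FPKM in WT tumor and 164 to 334 FPKM in LN, with Klrb1c at 0 in LN and Ncr1 at 0 in both; their part was not tested.

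**Figure D5:**
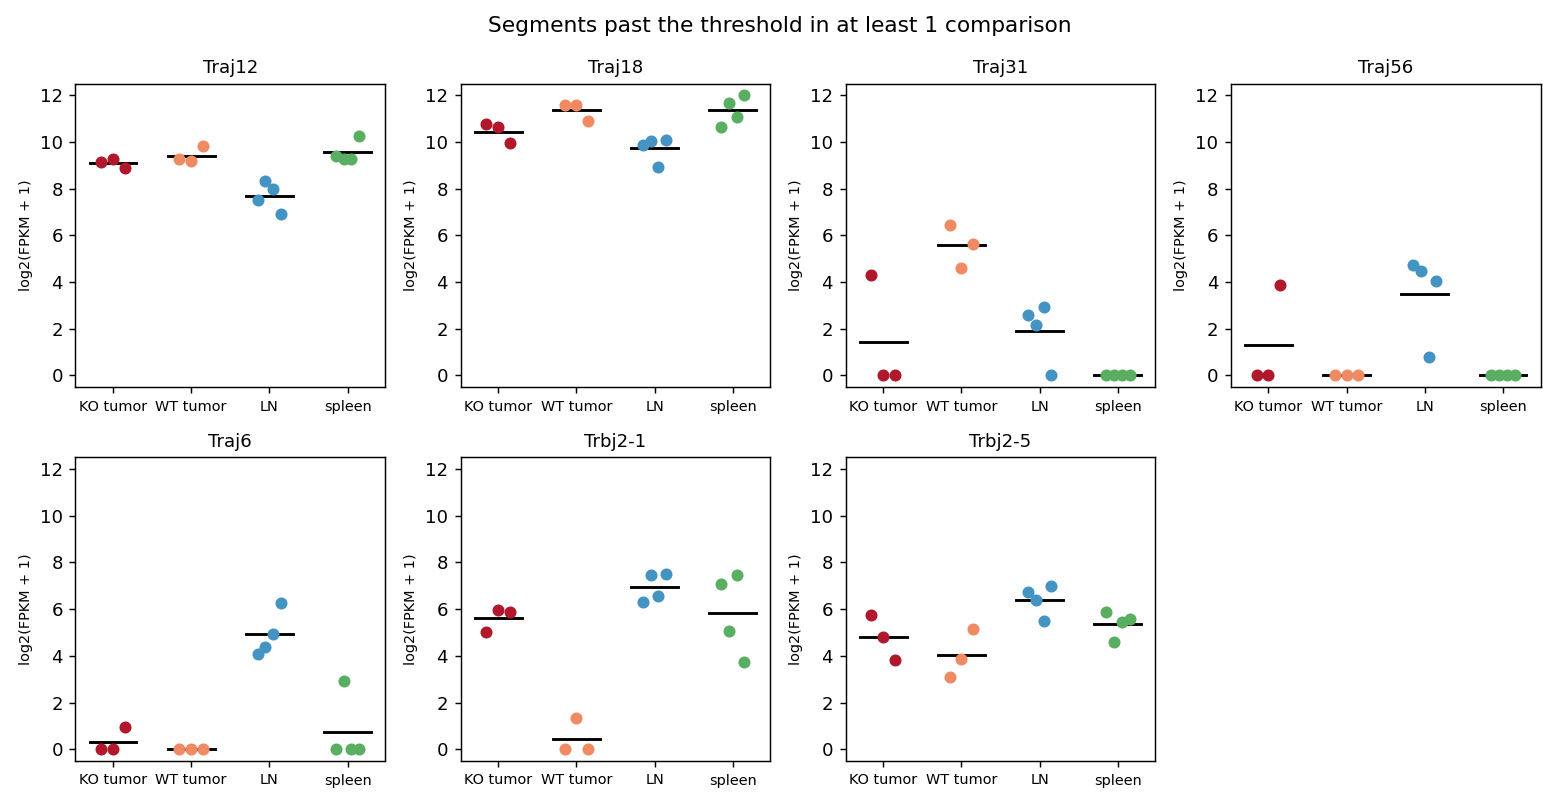
Level of each of the 7 segments past the threshold in at least 1 comparison, as log2(FPKM + 1) on the vertical axis, in the KO tumor, WT tumor, LN and spleen libraries. Points are libraries and lines are group means of the log2 values. Trbj2-1 is lowest in WT tumor (0, 1.49 and 0 FPKM), and Traj18 and Traj12 are lowest in LN.

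WT tumor and spleen libraries differed in 2 of 51 segments, beside 1.9% of the 9616 genes tested. Traj31 was at 86.6, 23.5 and 48.7 FPKM in WT tumor and at 0 in all 4 spleen libraries (limma log2 difference 5.57, adjusted p = 0.00222). Trbj2-1 was at 0, 1.49 and 0 FPKM in WT tumor and at 135, 32.5, 175 and 12.2 FPKM in spleen (limma log2 difference -5.40, adjusted p = 0.00320). Both passed under every alternative, with adjusted p of at most 0.0143 and 0.0244. Traj30 was at 39.5, 0 and 127 FPKM in WT tumor and at 0 in all spleen libraries, and missed the threshold (limma adjusted p = 0.118), which it passed without WT tumor replicate 3 (0.00278). Trbj2-5 differed by -1.33 (limma adjusted p = 0.259). Traj18 (2674 FPKM in WT tumor and 2778 FPKM in spleen) and Traj12 (699 and 785 FPKM) had log2 differences of 0.00240 ± 0.322 and -0.13 ± 0.327, both within 1 SE of 0. Of the 51 segments 3 did not overlap between these groups, beside 11.5% of all genes. Macrophage or monocyte markers (7 of 7, Adgre1 at 0 in WT tumor) summed to 0.842 to 26.8 FPKM in WT tumor and 210 to 445 FPKM in spleen, and immunoglobulin J segments to 1.91 to 65.7 FPKM in WT tumor and 152 to 716 FPKM in spleen. CD8 T or NK cell markers (6 of 6, Ncr1 at 0 in WT tumor) summed to 616 to 1038 FPKM in WT tumor and 190 to 484 FPKM in spleen. The part of these cells was not tested.

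LN and spleen libraries differed in 3 of 51 segments, beside 0.499% of the genes tested. At an unadjusted p under 0.05 there were 14, beside 10.4% of genes. Traj12 was at 183, 320, 252 and 119 FPKM in LN and at 681, 618, 616 and 1224 FPKM in spleen, and fell by 1.87 ± 0.303 on the log2 scale (limma adjusted p = 0.0169). Traj18 was at 926, 1065, 493 and 1080 FPKM in LN and at 1604, 3255, 2178 and 4073 FPKM in spleen, and fell by 1.61 ± 0.298 (limma adjusted p = 0.0309). Traj6 was at 15.9, 19.9, 30.0 and 74.7 FPKM in LN and at 0, 6.56, 0 and 0 FPKM in spleen, and rose by 4.19 ± 0.747 (limma adjusted p = 0.0281). All LN values lay below the spleen values for Traj12 and Traj18 and above them for Traj6. Traj6 was at 0 in all WT tumor libraries and above 0 in 1 spleen library, so it entered the fit through LN, where it is high.

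These 3 calls were close to the threshold. No segment was called without LN replicate 1, and 1 was called without LN replicate 2, spleen replicate 3 or spleen replicate 4. Adjusted p over the alternatives spanned 0.00693 to 0.0871 for Traj12, 0.0214 to 0.146 for Traj18 and 0.0123 to 0.0836 for Traj6. Without the filter on low values all 3 missed the threshold (limma adjusted p = 0.0871, 0.146 and 0.0836 in that order). Trbj1-6 was at 0, 83.8, 121 and 24.7 FPKM in LN and at 0 in all spleen libraries (limma adjusted p = 0.259), and Trbj1-4 was at 66.2, 130, 73.8 and 127 FPKM in LN and at 0, 33.5, 79.6 and 0 FPKM in spleen (limma adjusted p = 0.401). Of the 51 segments 7 did not overlap, beside 7.87% of all genes. Macrophage or monocyte markers (7 of 7) summed to 2.25 to 33.2 FPKM in LN and 210 to 445 FPKM in spleen, and immunoglobulin J segments to 0 to 87.6 FPKM in LN and 152 to 716 FPKM in spleen. Erythroid markers (5 of 5) summed to 79.0 to 1190 FPKM in LN and 2969 to 7079 FPKM in spleen, and B cell markers (6 of 6) to 49.2 to 67.5 FPKM in LN and 73.0 to 284 FPKM in spleen. Their part was not tested, nor was that of the greater depth of the LN libraries.

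Few other genes of the receptor and of its assembly passed the test. Of 3 constant, diversity or other J genes tested, 1 changed, between WT tumor and LN, a comparison in which 3.04% of all genes tested were called. This was Trbc2, the second beta constant gene, at 2140 ± 363 FPKM in WT tumor and 3141 ± 266 FPKM in LN (SD, n = 3 and 4), which fell by 0.56 ± 0.130 on the log2 scale (limma adjusted p = 0.0315). Of 4 genes of the CD3 complex tested, 1 changed, in the same comparison with the same 3.04% of genes called. Cd3e, a signalling chain of the complex, was at 156 ± 42.6 FPKM in WT tumor and 57.5 ± 9.60 FPKM in LN and rose by 1.40 ± 0.287 (limma adjusted p = 0.0157). None of the tested recombination and end-joining genes (9 in the tissue fit and 7 in the tumor fit) passed in any of the 4 comparisons by limma, the lowest adjusted p being 0.290. At an unadjusted p under 0.05 there were 2, both between WT tumor and LN, Xrcc4 and Prkdc, which act in the end joining of broken DNA. In that comparison 15.6% of all genes tested had an unadjusted p under 0.05. Prkdc averaged 0.840 FPKM in WT tumor and 3.39 FPKM in LN (log2 difference -1.24), and Xrcc4 1.97 FPKM in WT tumor and 11.8 FPKM in LN (log2 difference -2.29). The median log2 difference of the recombination genes tested was 0.38, 0.04, 0.42 and 0.64 for WT tumor minus spleen, WT tumor minus LN, LN minus spleen and KO minus WT tumor, against -0.07, -0.12, 0.02 and 0.07 over all genes.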

How the data were processed

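FPKM values, fragments per kilobase of transcript scaled to the mapped fragments of a library, were deposited by the authors for 22255 Ensembl genes in each of 14 Smart-Seq2 libraries. TopHat2 2.1.1, Bowtie2 2.2.9 and Cufflinks 2.2.1 on mm10 (GRCm38) are named in the submitters' processing notes, and none was rerun. Not given in the sources used here are the settings for short features and for reads that map to several places. Positions, biotypes and sequences came from GENCODE M21 on GRCm38. Depth was estimated from the steps between low values, which were whole reads within 0.1 in single-transcript genes of at least 800 bases, so it can be wrong by a whole factor. It limits the precision of low values, and no counting interval is given.

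The 67 segments were all genes whose symbol starts with Traj or Trbj and a digit. Members, gene lists and tests were chosen with earlier results of these data known. The share of a segment was its FPKM over the summed FPKM of its locus. Evenness was the Shannon entropy of the shares over the logarithm of the number of segments listed. These scores were described without a test. Single segments were tested across all genes with robust limma-trend (limma 3.58.1, R 4.3.3) on log2(FPKM + 1). Genes tested had at least 1 FPKM in at least 3 libraries of the fit. Benjamini-Hochberg adjustment was made over all genes tested, with a threshold of 0.05. A check on simulated data drew normal log2 values and left out the filter. It was not built on groups at 0, so it does not cover segments absent from a whole group. One fit held the spleen, lymph node and WT tumor libraries, and the other the KO and WT tumor libraries. Segments were named when they were among the 5 highest or 3 lowest of a locus by mean share, led a library, passed a test or had 1 of the 2 smallest p of a locus, or had the 3 largest or smallest relative spreads. Segments that complete a set of 5 or fewer, or that bear on a known receptor, were added after their values were seen. Alternatives were another pseudocount, no filter, upper quartile scaling, a fit of all libraries, the replicate block, leaving out each library, and other share and evenness measures. Same-numbered libraries did not deviate together (correlations from -0.0268 to -0.000542 over the genes tested). Python 3.11.15, numpy 2.4.6, pandas 2.3.3 and Biopython 1.88 did the rest.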

Additional observations from a re-analysis of the deposited data

Results flagged for a closer look

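Within the LN and spleen groups, of 4 libraries each, 1 library stood apart from the other 3 in 11 of 60 values examined, by Dixon's gap test at the 95% level. Chance alone flags about 1 in 20 such groups, and a segment seen in a single library of its group is always flagged.

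LN replicate 1 had a Traj evenness of 0.566, against 0.493 to 0.497 in the other LN libraries. Spleen replicate 4 had 1224 FPKM of Traj12, against 616 to 681 FPKM in the other spleen libraries. The same library had 476 FPKM of Trbj2-7, against 17.3 to 72.6 FPKM, and 114 FPKM of Trbj1-7, against 0 to 1.65 FPKM. Spleen replicate 2 had 62.2 FPKM of Trbj2-2, against 0 to 2.97 FPKM in the others.

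The remaining values were at 0 in the other 3 libraries of the group. In LN these were Traj30 in replicate 1 (2.39 FPKM), Traj57 in replicate 3 (13.3 FPKM) and Trbj1-7 in replicate 2 (67.6 FPKM). In spleen they were Traj46 in replicate 3 (3.45 FPKM), Traj6 in replicate 2 (6.56 FPKM) and Trbj1-5 in replicate 3 (46.4 FPKM).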

How the results depend on the processing

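Of 199 alternative values of the call counts, evenness and cluster share, 175 stayed within the spread or within 1.5 times the count. Not all of these were free to move. For evenness and cluster share, the replicate block of LN minus spleen repeats the main value by construction. For WT tumor minus LN or minus spleen it repeats the value without replicate 1 of LN or spleen. Simpson evenness was set against the spread of Shannon evenness, so its place within that spread says little. Without the filter on low values, calls were 3 for WT tumor minus LN, 0 for LN minus spleen and 0 for KO minus WT tumor (limma, against 7, 3 and 1). With a pseudocount of 0.1 there were 0 calls for KO minus WT tumor. Unadjusted p under 0.05 was met by 11 of 36 segments in KO minus WT tumor and 14 of 51 in LN minus spleen. With the replicate block, whose numbers do not pair the libraries, calls were 0 for LN minus spleen and 0 for KO minus WT tumor. Leaving out each library gave 2 to 3 calls for WT tumor minus spleen, 3 to 7 for WT tumor minus LN, 0 to 3 for LN minus spleen and 0 to 1 for KO minus WT tumor. Without KO tumor replicate 1 the 1 call was a segment lower in KO tumor, and Trbj2-1 was not called (limma adjusted p = 0.0649). An equal count can thus hold another segment.

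Without the leading segment, the Traj evenness difference was 0.105 for WT tumor minus spleen, -0.0369 for WT tumor minus LN and 0.000605 for KO minus WT tumor. Without the 5 leading segments, an alternative chosen after seeing the data, it was -0.132 for WT tumor minus LN, 0.185 for LN minus spleen and 0.116 for KO minus WT tumor. Simpson evenness, a measure on its own scale, gave -0.0218 at Traj for WT tumor minus LN, 0.0229 at Traj and 0.341 at Trbj for LN minus spleen. Trbj1-1 changed sign for KO minus WT tumor, to -0.0251 without WT tumor replicate 2, and spanned -0.0251 to 2.98 as each library was left out. Upper quartile scaling moved the median log2 difference of all genes to -0.16, -0.35, 0.17 and 0.23 (WT tumor minus spleen, WT tumor minus LN, LN minus spleen, KO minus WT tumor) and changed the sign of Traj18 for WT tumor minus spleen, from a value near 0 to -0.11. Of 288 alternative values of single named segments, 48 crossed the threshold or zero. Where a cause is not given by fewer libraries or genes, the cause was not tested. Low values rest on single reads, and a segment at 0 may be present below this depth.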
